A study of Homo sapiens with 9 samples.

Results

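A panel of 49 genes that encode chromatin modifiers was followed in the human breast cancer line MDA-MB-231 at 2 viscosities of the extracellular fluid. The panel was set by gene name and known function, with no threshold on a measured value but with earlier results of these data known. It holds 9 genes of the polycomb repressive complexes, 4 trithorax-type H3K4 methyltransferases, 7 other histone methyltransferases and 11 histone demethylases. The rest are 4 histone acetyltransferases, 8 histone deacetylases and 6 DNA methyltransferases and TET dioxygenases. All 49 were found among the 60664 genes listed, and all 49 were among the 18264 genes with enough counts to be tested. RNA was sequenced in 3 groups of 3 samples, each taken on day 6: cells with a scramble hairpin (SC) at 0.77 cP, the same cells at 8 cP, and, also at 8 cP, cells with a hairpin against *TRPV4*, a calcium-permeable channel (shTRPV4). The higher viscosity was set by dissolved methylcellulose, and all cells carried a lentiviral hairpin vector, scramble or targeting, kept under puromycin selection. The shTRPV4 cells were a transduced culture with a stable knockdown, and shTRPV4 samples at 0.77 cP were not analysed here, so that the effect of viscosity could not be compared with and without the hairpin.

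The proteins of this panel write, remove or carry forward marks on histone tails and on DNA. Polycomb repressive complex 2 methylates lysine 27 of histone H3, polycomb repressive complex 1 binds that mark and ubiquitinates histone H2A, and both keep genes silent through cell division, while trithorax-type enzymes methylate lysine 4 of histone H3 at active genes. Demethylases, deacetylases and TET dioxygenases erase marks, and many of the demethylases and all TET enzymes need oxygen, iron and 2-oxoglutarate as cofactors, which ties them to metabolism. In cell biology this machinery is studied as a means by which a cell keeps an earlier state, and the study asked whether cells keep a memory of elevated viscosity.

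Total counts ran from 64571681 to 103518036 over the 9 samples. *TRPV4* was measured at 0.424, 0.436 and 0.525 CPM (a gene’s counts relative to the scaled library size of the sample) in SC samples at 0.77 cP, at 0.647, 0.466 and 0.264 CPM in SC samples at 8 cP, and at 0.0764, 0.0128 (1 count) and 0.144 CPM in shTRPV4 samples. Its log2 fold change between shTRPV4 and SC samples at 8 cP was -2.51 (standard error, SE, 0.49; edgeR adjusted p = 0.00219). Of 8 genes known for high levels in MDA-MB-231 cells, all were detected, with *VIM* at a mean of 1054 CPM in SC samples at 0.77 cP, whereas *ESR1*, *PGR*, *FOXA1* and *CDH1* were too low to be tested. The other 4 of 8 luminal and epithelial genes were tested, 2 of them passed in each comparison, and the list summed to between 1340 and 1861 CPM in a sample, most of it from the keratin gene *KRT8*, with a mean of 1406 CPM in SC samples at 0.77 cP. Markers of leukocytes summed to between 0.284 and 0.661 CPM in a sample, and those of endothelium to between 3.87 and 9.99 CPM. Of the 4 endothelial genes, *CDH5* was too low to be tested, *PECAM1* was lower at 8 cP in SC samples (log2 fold change -0.86, edgeR adjusted p = 0.0016) and *KDR* was lower in shTRPV4 than in SC samples at 8 cP (-0.89, edgeR adjusted p = 0.00032). The other gene tested was *VWF*. It had log2 fold changes of -1.31 between the SC groups and 1.88 between shTRPV4 and SC samples at 8 cP, neither of which passed. No source says that the samples of a group were separate cultures, so the p-values measure only the spread between these samples, which may be technical.

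Compared per length, as CPM per kilobase of annotated exon, the levels in SC samples at 0.77 cP spanned from 53.1 for *HDAC1*, a class I deacetylase, to 0.193 for *TET1*. Next below *HDAC1* came *HDAC3* with 18.5, the maintenance DNA methyltransferase gene *DNMT1* with 17.3, the polycomb gene *BMI1* with 16.6 and *SUZ12*, a core subunit of polycomb repressive complex 2, with 15.0. At the low end stood *DNMT3A* with 0.782, *KDM7A* with 0.832, *KDM4C* with 0.913 and *KMT2C* with 1.04. These values use all exon bases that the annotation gives a gene, so that genes with long or rarely used exons have lower values.

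**Figure D1:**
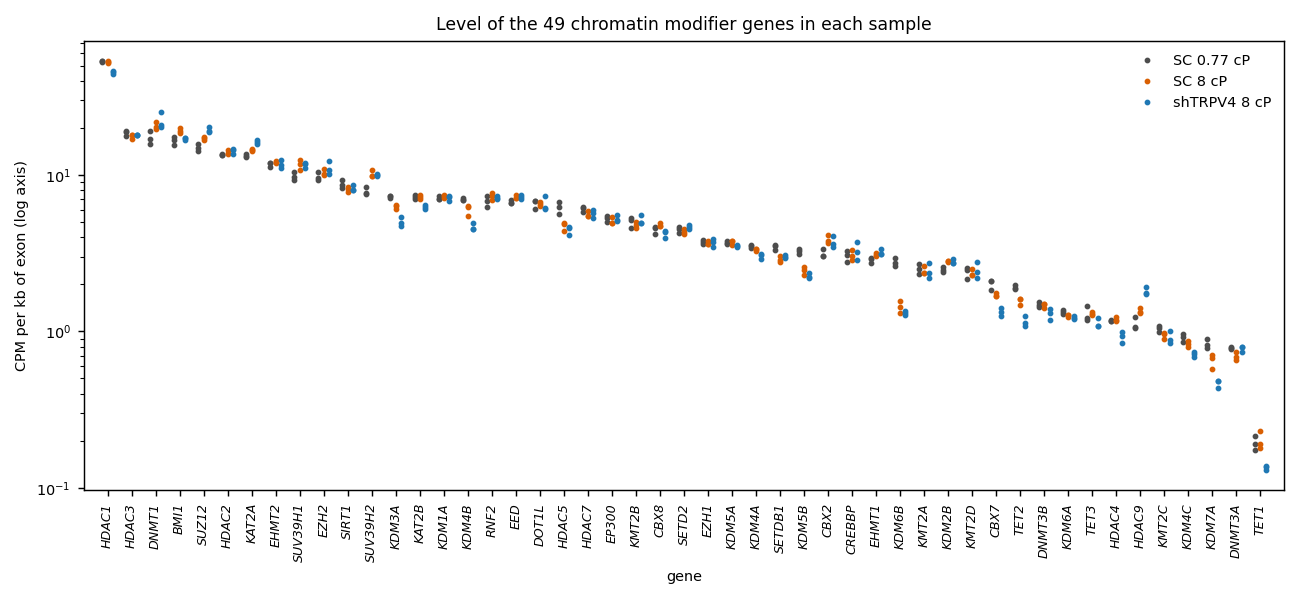
Level of each chromatin modifier gene in each of the 9 samples, as CPM per kilobase of exon on a log axis, ordered by the mean of SC samples at 0.77 cP; each point is 1 sample and the colour gives the group. *HDAC1* (53.1) and *TET1* (0.193) stand at the ends, and the 3 groups of a gene lie close together against the span between genes.

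The first comparison asked how the panel differed after culture at 8 cP. At 8 cP against 0.77 cP in SC samples, 17 of the 49 genes (34.7%) passed an adjusted p of 0.05, 8 higher and 9 lower at 8 cP. Over all genes tested, 19.3% passed, 9.57% higher and 9.69% lower, and among the 11769 genes whose mean level lay within the panel's range the share was 25.8%. The median log2 fold change of the panel was -0.010, against -0.0065 over all genes tested. The differences were small apart from *KDM6B*, with log2 fold changes between -0.41 and 0.36 for the other genes that passed. The count of 17 fell to 7 without replicate 3 of SC samples at 8 cP, to 8 without replicate 1 and to 11 without replicate 2 of SC samples at 0.77 cP.

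The second comparison asked how shTRPV4 samples differed from SC samples at the same 8 cP. It gave 13 of 49 genes (26.5%), 3 higher and 10 lower in shTRPV4 samples, where 20.0% of all genes passed, 9.02% higher and 11.0% lower, and 25.9% of the genes in the panel’s range of levels, near the share of the panel. The median of the panel was -0.030 on the log2 scale and that of all genes 0.0006. Between shTRPV4 samples at 8 cP and SC samples at 0.77 cP, groups that differ in both hairpin and viscosity, 27 of 49 genes (55.1%) passed, 10 higher and 17 lower. The shares over all genes were 42.4%, 20.4% and 22.0%, and the share among genes in the panel's range of levels was 54.1%, near that of the panel. The 3 comparisons share samples in pairs: the values of SC samples at 8 cP enter the first with a positive and the second with a negative sign. They are therefore given side by side, and no likeness between them was tested.

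**Figure D2:**
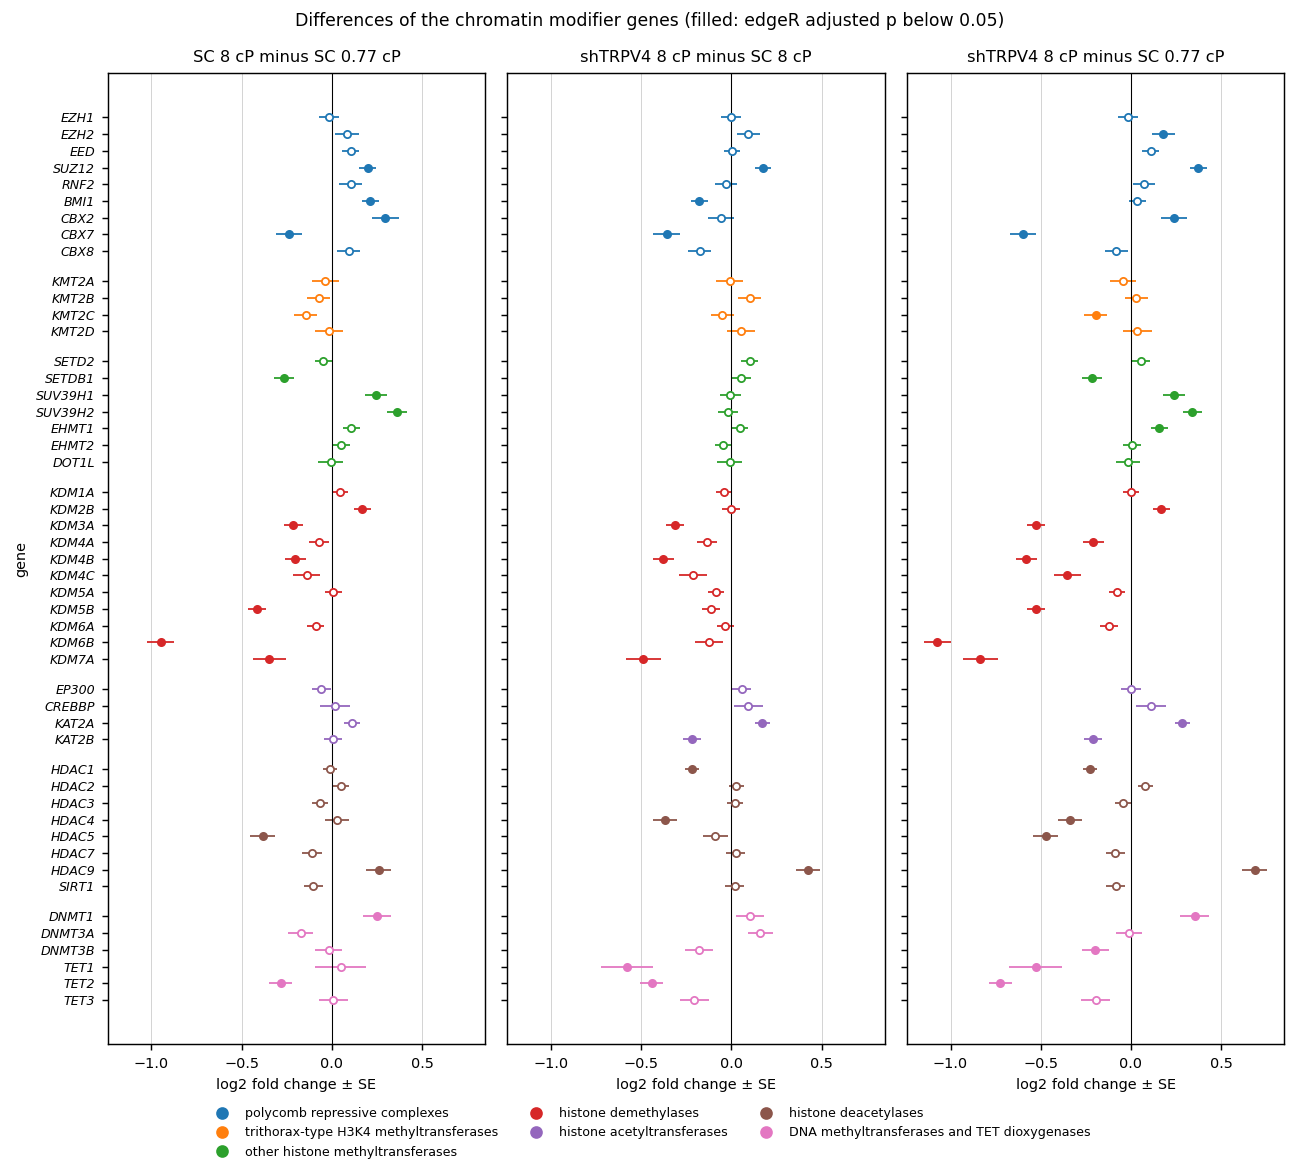
Log2 fold change (x axis) with its standard error for each gene (y axis, by class) in the 3 comparisons; filled points had an edgeR adjusted p below 0.05. *KDM6B* lies farthest from 0 in the left and right panels, at -0.95 and -1.07, and points of the demethylases lie mostly to the left of 0.

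The histone demethylases held the largest difference of the panel (*KDM6B*) against SC samples at 0.77 cP, while between shTRPV4 and SC samples at 8 cP the largest was that of *TET1* (-0.58). At 8 cP, 5 of the 11 fell in SC samples and 1 rose, with a median log2 fold change of -0.14, and their summed level was between 579 and 584 CPM at 0.77 cP and between 516 and 537 CPM at 8 cP. In shTRPV4 samples 3 were lower than in SC samples at 8 cP and none higher (median -0.12), and the summed level was between 467 and 479 CPM. Against SC samples at 0.77 cP, 7 were lower and 1 higher in shTRPV4 samples (median -0.35). In the 3 comparisons these calls were 54.55%, 27.27% and 72.73% of the 11. Over all genes the shares were 19.3%, 20.0% and 42.4%, and among genes in the panel's range of levels 25.8%, 25.9% and 54.1%. The second share of the class lay near this background. RNA was taken in bulk, so a lower level in every cell and fewer cells that express the gene cannot be told apart.

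*KDM6B* (ENSG00000132510; GRCh38, chr17:7834217-7854796, plus strand) encodes JMJD3, a demethylase that removes the polycomb mark from lysine 27 of histone H3 and that is known as a gene induced by stress and inflammatory signals. It was measured at 20.3, 21.7 and 19.5 CPM in SC samples at 0.77 cP, at 11.6, 10.6 and 9.63 CPM in SC samples at 8 cP, and at 10.0, 9.43 and 9.72 CPM in shTRPV4 samples. All 6 samples at 8 cP lay far below the 3 samples at 0.77 cP, and the groups at 8 cP overlapped. On the log2 scale the difference was -0.95 between the SC groups (SE 0.074, edgeR adjusted p = 5.6e-07) and -1.07 between shTRPV4 samples and SC samples at 0.77 cP (SE 0.075, edgeR adjusted p = 5.05e-08). Between shTRPV4 and SC samples at 8 cP it was -0.12, with a 95% interval from -0.29 to 0.04 (edgeR adjusted p = 0.28). Its paralogue *KDM6A*, which acts on the same mark and escapes X inactivation, had a log2 fold change of -0.09 between the SC groups (95% interval from -0.19 to 0.01, edgeR adjusted p = 0.209).

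*KDM5B* (ENSG00000117139; chr1:202724495-202808487, minus strand) encodes a demethylase of lysine 4 of histone H3 that has been linked to slow-cycling tumour cells. Its levels were 83.3, 81.6 and 77.9 CPM in SC samples at 0.77 cP, 63.8, 61.0 and 57.2 CPM in SC samples at 8 cP, and 55.1, 58.7 and 54.7 CPM in shTRPV4 samples. As for *KDM6B*, both groups at 8 cP lay below 0.77 cP and overlapped each other. The fold change on the log2 scale was -0.41 between the SC groups (SE 0.051, edgeR adjusted p = 9.55e-05), -0.11 between shTRPV4 and SC samples at 8 cP (95% interval from -0.22 to -0.0031, edgeR adjusted p = 0.143) and -0.53 between shTRPV4 samples and SC samples at 0.77 cP. *KDM5A*, of the same family, passed in none of the 3 comparisons, with log2 fold changes from -0.09 to 0.01.

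*KDM3A* (ENSG00000115548; chr2:86440647-86492716, plus strand) encodes a demethylase of lysine 9 of histone H3, and *KDM4B* (ENSG00000127663; chr19:4969113-5153598, plus strand) another that acts on its trimethylated form. Both are known as genes that hypoxia-inducible factor raises. *KDM3A* was at 97.5, 97.5 and 94.2 CPM in SC samples at 0.77 cP, at 85.4, 83.6 and 80.5 CPM in SC samples at 8 cP and at 63.0, 71.8 and 65.9 CPM in shTRPV4 samples. *KDM4B* was at 104.2, 101 and 101 CPM, at 93.8, 92.5 and 80.4 CPM and at 66.5, 66.3 and 72.5 CPM in the same order. For each of these genes the 3 groups did not overlap, with SC samples at 0.77 cP highest and shTRPV4 samples lowest. The log2 fold change of *KDM3A* was -0.21 between the SC groups (SE 0.050, edgeR adjusted p = 0.00939) and -0.31 between shTRPV4 and SC samples at 8 cP (SE 0.050, edgeR adjusted p = 0.000459). That of *KDM4B* was -0.20 (SE 0.057, edgeR adjusted p = 0.0233) and -0.38 (SE 0.058, edgeR adjusted p = 0.000308). Against SC samples at 0.77 cP, shTRPV4 samples differed by -0.53 for *KDM3A* and -0.58 for *KDM4B*. The difference between the SC groups no longer passed without replicate 1 of SC samples at 0.77 cP (edgeR adjusted p = 0.0536 for *KDM3A* and 0.104 for *KDM4B*) or without replicate 3 of SC samples at 8 cP (0.0699 and 0.160), and for *KDM4B* also without replicate 2 of SC samples at 0.77 cP (0.0672).

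*KDM7A* (ENSG00000006459; chr7:140084746-140176983, minus strand), whose product removes methyl groups from lysines 9 and 27 of histone H3, showed the same order at a low level. It was at 7.32, 8.39 and 7.70 CPM in SC samples at 0.77 cP, at 6.37, 6.59 and 5.40 CPM in SC samples at 8 cP and at 4.53, 4.06 and 4.49 CPM in shTRPV4 samples, with no overlap between the groups. Its log2 fold change was -0.35 between the SC groups (SE 0.093, edgeR adjusted p = 0.018), -0.49 between shTRPV4 and SC samples at 8 cP (SE 0.096, edgeR adjusted p = 0.00224) and -0.83 between shTRPV4 samples and SC samples at 0.77 cP. The first of these did not pass without replicate 2 of SC samples at 0.77 cP (edgeR adjusted p = 0.085) or replicate 3 of SC samples at 8 cP (0.111). *KDM2B*, which recruits a variant polycomb complex to CpG islands, was the 1 demethylase gene that rose, with a log2 fold change of 0.17 between the SC groups (edgeR adjusted p = 0.0252) and 0.17 between shTRPV4 samples and SC samples at 0.77 cP (edgeR adjusted p = 0.0115). The first value of *KDM2B* failed in 4 fits with a sample left out, without replicate 1 or 2 of SC samples at 0.77 cP or replicate 2 or 3 of SC samples at 8 cP (edgeR adjusted p from 0.0558 to 0.0856). *KDM4A* (-0.21, edgeR adjusted p = 0.0077) and *KDM4C* (-0.35, edgeR adjusted p = 0.00151) differed between shTRPV4 samples and SC samples at 0.77 cP. *KDM4A* shares 40.2% of its exon bases with genes on its own strand, and reads there cannot be assigned to 1 gene. *KDM1A*, the amine-oxidase demethylase LSD1, had log2 fold changes between -0.04 and 0.04.

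Hypoxia response genes also differed between these groups. For comparison, 9.69% of all genes were lower at 8 cP in SC samples. Against SC samples at 8 cP, 11.0% of all genes were lower in shTRPV4 samples. The hypoxia list was chosen with earlier results of these data known, so it is no independent test. Of 14 listed, 8 were lower and none higher at 8 cP in SC samples, with a median log2 fold change of -0.23, and 13 were lower in shTRPV4 than in SC samples at 8 cP, with a median of -0.48. Their summed level lay between 7005 and 7304 CPM in SC samples at 0.77 cP, between 6254 and 6855 CPM in SC samples at 8 cP and between 4594 and 5300 CPM in shTRPV4 samples. *CA9*, a carbonic anhydrase gene of this list, had a log2 fold change of -0.59 between the SC groups (edgeR adjusted p = 0.012) and of -1.31 between shTRPV4 and SC samples at 8 cP (edgeR adjusted p = 4.1e-05). Of its exon bases, 35.7% are shared with genes on the other strand. The part of a hypoxia response in the levels of *KDM3A*, *KDM4B* and the other demethylase genes was not tested.

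The start regions of *KDM6B* and *KDM3A* are shown because these genes had, respectively, the largest difference between the SC groups and a stepwise fall over the 3 groups. They run from 250 bases before the RefSeq start site to 20 after it on GRCh38.p14, at chr17:7833967-7834236 and chr2:86441121-86441390 on the plus strand, with matches to the core letters of the hypoxia-inducible factor site (ACGTG or GCGTG, on either strand) in capitals.
KDM6B: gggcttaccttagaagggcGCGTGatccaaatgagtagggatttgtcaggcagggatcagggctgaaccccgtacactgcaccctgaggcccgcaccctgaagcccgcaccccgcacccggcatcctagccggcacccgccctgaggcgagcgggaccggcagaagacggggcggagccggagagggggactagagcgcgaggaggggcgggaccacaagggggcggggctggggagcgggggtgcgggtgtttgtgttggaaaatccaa
KDM3A: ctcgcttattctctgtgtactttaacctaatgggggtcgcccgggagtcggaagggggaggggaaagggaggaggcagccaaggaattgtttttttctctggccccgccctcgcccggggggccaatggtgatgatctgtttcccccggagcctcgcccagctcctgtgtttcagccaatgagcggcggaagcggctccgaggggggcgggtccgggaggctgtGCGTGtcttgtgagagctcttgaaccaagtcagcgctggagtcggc
The match began 231 bases before the start of *KDM6B* and 26 bases before that of *KDM3A*. In windows of 300 bases around the start, these 5 letters were found in 48.4% of 27305 genes, in 36 of the 45 panel genes with a window and in 9 of 11 hypoxia response genes. A match describes letters in the window only. *KDM5B* held 1 match, 64 bases before its start, and *KDM4B* several. Panel and background were not matched for base composition.

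**Figure D3:**
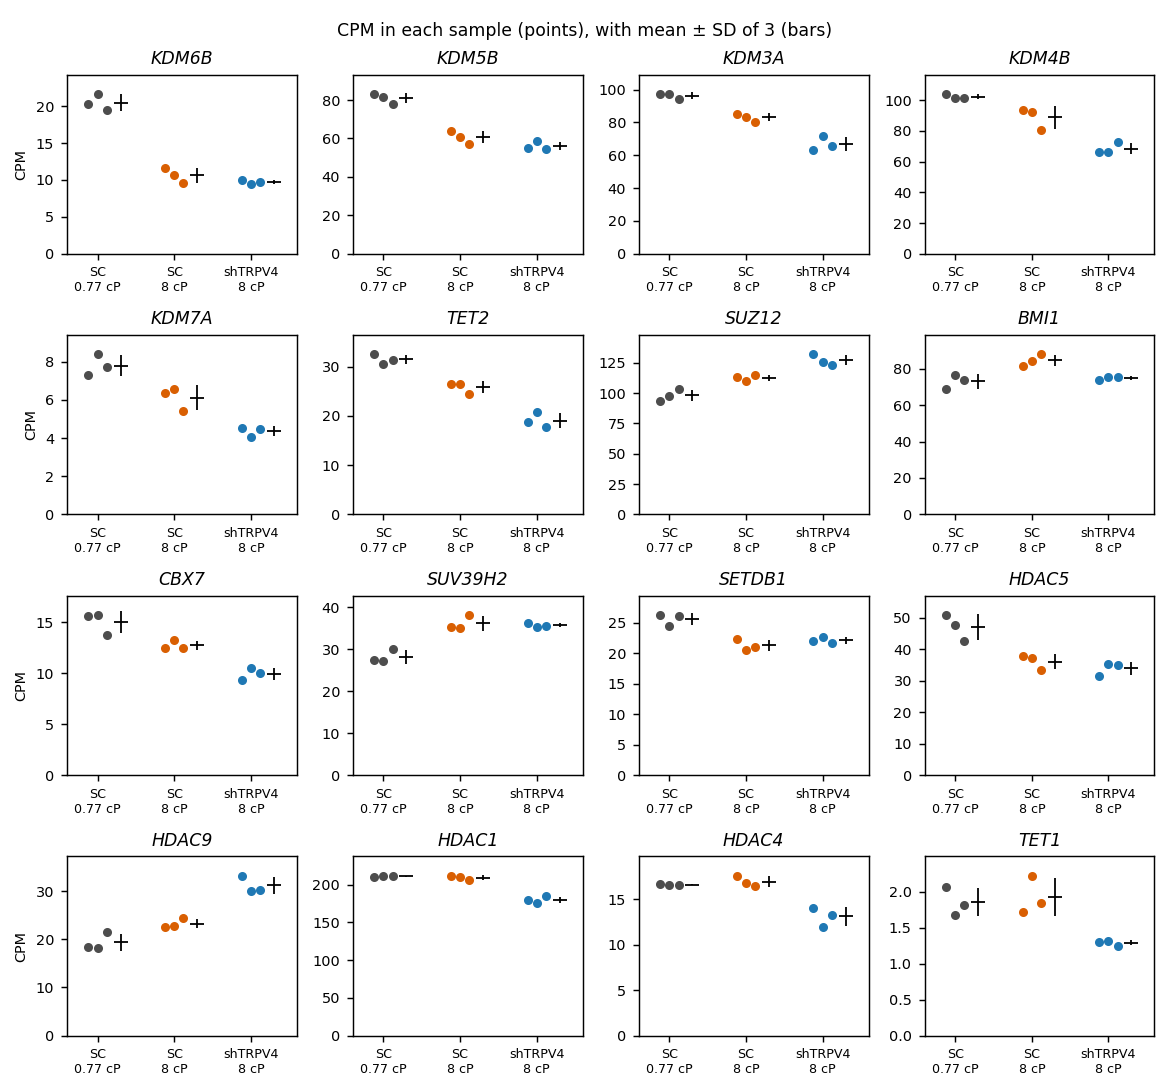
CPM (y axis from 0) of 16 genes in each sample (points, by group) with the mean ± SD of 3 samples (bars). In *KDM6B* and *KDM5B* both groups at 8 cP sit together below SC samples at 0.77 cP, in *KDM3A*, *KDM4B*, *KDM7A*, *TET2* and *CBX7* the level steps down over the 3 groups, and *HDAC1*, *HDAC4* and *TET1* are lower in shTRPV4 samples while the SC groups overlap.

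Of the 9 polycomb genes, 3 rose and 1 fell at 8 cP in SC samples (median log2 fold change 0.10). Against SC samples at 8 cP, shTRPV4 samples had 1 higher and 2 lower (median -0.03), and against SC samples at 0.77 cP 3 higher and 1 lower (median 0.07). These were 44.44%, 33.33% and 44.44% of the 9, where 19.3%, 20.0% and 42.4% of all genes passed. Among genes in the panel's range of levels the shares were 25.8%, 25.9% and 54.1%. The third share of the class lay near that of all genes. Within polycomb repressive complex 1, *BMI1* and *CBX2* rose and *CBX7* fell between the SC groups.

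*SUZ12* (ENSG00000178691; chr17:31937007-32001038, plus strand), which polycomb repressive complex 2 needs for its activity, was at 93.8, 97.4 and 103 CPM in SC samples at 0.77 cP, at 113, 110 and 115 CPM in SC samples at 8 cP and at 132, 126 and 123 CPM in shTRPV4 samples. The level stepped up over the groups without overlap. On the log2 scale it differed by 0.20 between the SC groups (SE 0.047, edgeR adjusted p = 0.00918), 0.17 between shTRPV4 and SC samples at 8 cP (SE 0.047, edgeR adjusted p = 0.0155) and 0.37 between shTRPV4 samples and SC samples at 0.77 cP (edgeR adjusted p = 1.52e-05). The first difference did not pass without replicate 1 of SC samples at 0.77 cP (edgeR adjusted p = 0.0507), and the second did not without replicate 1 (0.0518) or 2 (0.0934) of SC samples or replicate 1 of shTRPV4 samples (0.0504). The other core subunits had smaller differences. *EZH2*, the catalytic subunit, had log2 fold changes of 0.09 and 0.09 in the first and second comparison, which did not pass, and of 0.18 between shTRPV4 samples and SC samples at 0.77 cP (edgeR adjusted p = 0.0377), a value that was lost without replicate 1 (0.141) or 2 (0.101) of SC samples at 0.77 cP and without replicate 1 (0.187) or 2 (0.0543) of shTRPV4 samples. *EED* had a difference of 0.10 between the SC groups, with a 95% interval from 0.01 to 0.20 (edgeR adjusted p = 0.122), and *EZH1* of -0.01, with an interval from -0.13 to 0.10.

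*BMI1* (ENSG00000168283; chr10:22321099-22331484, plus strand) encodes a ring finger subunit of polycomb repressive complex 1 that is known for the upkeep of stem cells. It was at 68.7, 76.7 and 73.6 CPM in SC samples at 0.77 cP, at 81.6, 84.3 and 87.8 CPM in SC samples at 8 cP and at 73.7, 75.3 and 75.3 CPM in shTRPV4 samples. SC samples at 8 cP lay above both other groups, which overlapped each other. On the log2 scale the difference was 0.21 between the SC groups (SE 0.049, edgeR adjusted p = 0.00784) and -0.18 between shTRPV4 and SC samples at 8 cP (SE 0.049, edgeR adjusted p = 0.0176), and between shTRPV4 samples and SC samples at 0.77 cP it was 0.04, with a 95% interval from -0.07 to 0.14. Since the same 3 samples stand in both of the first 2 values, their opposite signs are no independent observations. The value against shTRPV4 samples did not pass without replicate 2 (edgeR adjusted p = 0.0571) or 3 (0.0798) of SC samples at 8 cP. Of the exon bases of *BMI1*, 22.8% are shared with the read-through gene *COMMD3-BMI1* on the same strand, which was listed at 0 in all 9 samples. Reads in shared bases cannot be assigned to 1 gene, so this 0 cannot tell whether read-through transcripts were present.

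The chromobox genes, which encode the subunits of polycomb repressive complex 1 that bind the methyl mark, parted. *CBX7* (ENSG00000100307; chr22:39120167-39152680, minus strand) was at 15.6, 15.7 and 13.8 CPM in SC samples at 0.77 cP, at 12.5, 13.2 and 12.5 CPM in SC samples at 8 cP and at 9.37, 10.5 and 10.0 CPM in shTRPV4 samples. The groups did not overlap and stepped down in that order. Its log2 fold change was -0.24 between the SC groups (SE 0.072, edgeR adjusted p = 0.0301), -0.36 between shTRPV4 and SC samples at 8 cP (SE 0.073, edgeR adjusted p = 0.00271) and -0.60 between shTRPV4 samples and SC samples at 0.77 cP. The first of these depended on single samples, since it did not pass without any of replicates 1 and 2 of SC samples at 0.77 cP and 1, 2 and 3 of SC samples at 8 cP (edgeR adjusted p from 0.0554 to 0.138). *CBX2* rose by 0.30 between the SC groups (edgeR adjusted p = 0.0115) and was higher by 0.24 in shTRPV4 samples than in SC samples at 0.77 cP (edgeR adjusted p = 0.0159). Both calls of *CBX2* were lost without replicate 1 of SC samples at 0.77 cP (edgeR adjusted p = 0.057 and 0.0583), the first also without replicate 3 of SC samples at 8 cP (0.0596), and the second also without replicate 2 of SC samples at 0.77 cP (0.0564) or replicate 1 of shTRPV4 samples (0.081). *CBX8* and *RNF2*, the ubiquitin ligase of the complex, passed in no comparison. *CBX7* shares 17.9% of its exon sequence with genes of the opposite strand, and the strand setting of the counting is not given in the sources used here.

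None of the 4 trithorax-type methyltransferase genes, *KMT2A*, *KMT2B*, *KMT2C* and *KMT2D*, passed in the first or the second comparison with edgeR's quasi-likelihood test. At an unadjusted p below 0.05 there was 1 in the first and 0 in the second, and DESeq2 called 0 in both. Their 95% intervals lay between -0.28 and 0.15 on the log2 scale in the first comparison and between -0.18 and 0.24 in the second. *KMT2C*, which marks enhancers, differed by -0.19 between shTRPV4 samples and SC samples at 0.77 cP (edgeR adjusted p = 0.022), and this did not hold without replicate 1 (0.0948) or 3 (0.0565) of SC samples at 0.77 cP or replicate 2 (0.0878) or 3 (0.105) of shTRPV4 samples.

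Among the 7 other histone methyltransferases, enzymes of lysine 9 of histone H3 moved in opposite directions at 8 cP. *SUV39H2* (ENSG00000152455; chr10:14878820-14904315, plus strand), which trimethylates lysine 9 at constitutive heterochromatin, was at 27.4, 27.1 and 29.9 CPM in SC samples at 0.77 cP, at 35.3, 35.0 and 38.1 CPM in SC samples at 8 cP and at 36.2, 35.2 and 35.6 CPM in shTRPV4 samples. All 6 samples at 8 cP lay above the 3 at 0.77 cP, whatever the hairpin. The fold change on the log2 scale was 0.36 between the SC groups (SE 0.054, edgeR adjusted p = 0.000654), -0.02 between shTRPV4 and SC samples at 8 cP (95% interval from -0.13 to 0.10) and 0.34 between shTRPV4 samples and SC samples at 0.77 cP (edgeR adjusted p = 0.000137). *SUV39H1*, its paralogue on the X chromosome, rose by 0.24 between the SC groups (SE 0.061, edgeR adjusted p = 0.0122) and had a difference of -0.01 between shTRPV4 and SC samples at 8 cP (95% interval from -0.13 to 0.12). Its call between the SC groups was lost without replicate 1 of SC samples at 0.77 cP (edgeR adjusted p = 0.069) or replicate 3 of SC samples at 8 cP (0.0709), and 21.2% of its exon bases are shared with a gene on the other strand.

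*SETDB1* (ENSG00000143379; chr1:150926263-150964744, plus strand), the lysine 9 methyltransferase that silences retroelements together with TRIM28, moved the other way. It was at 26.3, 24.6 and 26.1 CPM in SC samples at 0.77 cP, at 22.3, 20.5 and 21.1 CPM in SC samples at 8 cP and at 22.0, 22.7 and 21.7 CPM in shTRPV4 samples. Both groups at 8 cP lay below 0.77 cP and overlapped each other. Its log2 fold change was -0.27 between the SC groups (SE 0.056, edgeR adjusted p = 0.00484), 0.05 between shTRPV4 and SC samples at 8 cP (95% interval from -0.07 to 0.17) and -0.21 between shTRPV4 samples and SC samples at 0.77 cP (edgeR adjusted p = 0.00565). *SETDB1* shares 12.9% of its exon bases with *CERS2* on the opposite strand. In the second comparison 0 of the 7 genes of this class passed with edgeR, 0 had an unadjusted p below 0.05 and DESeq2 called 0. *EHMT1* differed by 0.16 between shTRPV4 samples and SC samples at 0.77 cP (edgeR adjusted p = 0.0127), but not without replicate 2 of SC samples at 0.77 cP (0.0547) or replicate 1 of shTRPV4 samples (0.0519), while its partner *EHMT2*, *SETD2*, which methylates lysine 36 along transcribed genes, and *DOT1L*, which methylates lysine 79, passed in none.

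No histone acetyltransferase gene passed between the SC groups with edgeR (1 of 4 at an unadjusted p below 0.05, and 1 with DESeq2). That gene was *KAT2A*, with a log2 fold change of 0.11 (edgeR adjusted p = 0.0832, and 0.0418 with DESeq2). The paralogues *KAT2A* (GCN5) and *KAT2B* (PCAF), which serve in the same coactivator complexes, had opposite signs in shTRPV4 samples. *KAT2A* was at a mean of 54.5 ± 0.64 CPM (n = 3, SD here and after) in SC samples and 61.4 ± 2.0 CPM in shTRPV4 samples at 8 cP, a log2 fold change of 0.17 (edgeR adjusted p = 0.0118) that did not pass without replicate 2 of SC samples at 8 cP (0.0571). Of the exon bases of *KAT2A*, 10.7% are shared with genes on its own strand. *KAT2B* was at 37.7 ± 0.97 CPM and 32.5 ± 0.97 CPM, a log2 fold change of -0.22 (edgeR adjusted p = 0.00514). The general coactivators *EP300* and *CREBBP* passed in no comparison, and their 95% intervals between the SC groups ran from -0.17 to 0.06 and from -0.16 to 0.19.

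Of the 8 deacetylase genes, *HDAC5* fell and *HDAC9* rose between the SC groups, both of them class IIa deacetylases, which move between nucleus and cytoplasm in response to signals. *HDAC5* (ENSG00000108840; chr17:44076746-44123702, minus strand) was at 50.9, 47.7 and 42.6 CPM in SC samples at 0.77 cP, at 37.7, 37.2 and 33.3 CPM in SC samples at 8 cP and at 31.7, 35.2 and 34.9 CPM in shTRPV4 samples. *HDAC9* (ENSG00000048052; chr7:18086949-19002416, plus strand) was at 18.4, 18.2 and 21.4 CPM, at 22.5, 22.8 and 24.4 CPM and at 33.2, 30.0 and 30.3 CPM in the same order. The groups at 8 cP overlapped for *HDAC5*, while *HDAC9* stepped up over the 3 groups without overlap. The log2 fold change of *HDAC5* was -0.38 between the SC groups (SE 0.069, edgeR adjusted p = 0.00218) and -0.09 between shTRPV4 and SC samples at 8 cP (95% interval from -0.24 to 0.06). For *HDAC9* it was 0.26 (SE 0.069, edgeR adjusted p = 0.017) and 0.42 (SE 0.068, edgeR adjusted p = 0.00047), and 0.69 between shTRPV4 samples and SC samples at 0.77 cP, the largest rise in the panel. The first value of *HDAC9* did not pass without replicate 1 (edgeR adjusted p = 0.0845) or 2 (0.0711) of SC samples at 0.77 cP or replicate 3 of SC samples at 8 cP (0.0764). Of the exon bases of *HDAC5*, 24.0% are shared with *G6PC3* on the other strand.

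*HDAC1* and *HDAC4* differed with the hairpin while the SC groups overlapped. *HDAC1* (ENSG00000116478; chr1:32292083-32333635, plus strand) was at 209, 211 and 212 CPM in SC samples at 0.77 cP, at 211, 210 and 206 CPM in SC samples at 8 cP and at 179, 176 and 184 CPM in shTRPV4 samples, with a log2 fold change of -0.22 between shTRPV4 and SC samples at 8 cP (SE 0.040, edgeR adjusted p = 0.00125). *HDAC4* (ENSG00000068024; chr2:239048168-239401654, minus strand) was at 16.7, 16.6 and 16.5 CPM, at 17.6, 16.7 and 16.5 CPM and at 14.1, 12.0 and 13.3 CPM in the same order, with a log2 fold change of -0.37 (SE 0.067, edgeR adjusted p = 0.00121). Between the SC groups the log2 fold changes were -0.01 for *HDAC1* (95% interval from -0.09 to 0.07) and 0.03 for *HDAC4* (from -0.11 to 0.17). *HDAC2*, which sits with *HDAC1* in the same corepressor complexes, had log2 fold changes of 0.05, 0.03 and 0.08 in the 3 comparisons, none of which passed. *HDAC3*, *HDAC7* and the NAD-dependent deacetylase gene *SIRT1* also passed in none.

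Among the 6 genes that write or erase DNA methylation, *DNMT1* rose and *TET2* fell between the SC groups (median of the class -0.0040), and *TET1* and *TET2* were lower in shTRPV4 than in SC samples at 8 cP (median -0.19). *DNMT1*, which copies the methylation pattern to the new strand at replication, was at 266 ± 27 CPM in SC samples at 0.77 cP, 317 ± 16 CPM in SC samples at 8 cP and 340 ± 40 CPM in shTRPV4 samples. Its log2 fold change was 0.25 between the SC groups (SE 0.079, edgeR adjusted p = 0.037), 0.10 between shTRPV4 and SC samples at 8 cP (95% interval from -0.06 to 0.27) and 0.35 between shTRPV4 samples and SC samples at 0.77 cP (edgeR adjusted p = 0.00198). The rise between the SC groups did not pass without replicate 1 (edgeR adjusted p = 0.126) or 2 (0.147) of SC samples at 0.77 cP or replicate 1 (0.0666) or 3 (0.134) of SC samples at 8 cP. The de novo methyltransferase genes were low. *DNMT3A* had a difference of -0.17 between the SC groups (95% interval from -0.32 to -0.02, edgeR adjusted p = 0.0982). *DNMT3B* passed between shTRPV4 samples and SC samples at 0.77 cP with -0.20 (edgeR adjusted p = 0.0476), which was lost in 8 of the 9 fits with 1 sample omitted (edgeR adjusted p from 0.0632 to 0.213) and with DESeq2 (0.0675).

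*TET2* (ENSG00000168769; chr4:105145875-105279816, plus strand), a dioxygenase that oxidizes methylated cytosine on the way to its removal, was at 32.5, 30.5 and 31.4 CPM in SC samples at 0.77 cP, at 26.6, 26.6 and 24.5 CPM in SC samples at 8 cP and at 18.7, 20.8 and 17.7 CPM in shTRPV4 samples. The groups stepped down without overlap, as did those of the demethylase genes *KDM3A*, *KDM4B* and *KDM7A*. Its log2 fold change was -0.28 between the SC groups (SE 0.063, edgeR adjusted p = 0.00672), -0.44 between shTRPV4 and SC samples at 8 cP (SE 0.064, edgeR adjusted p = 0.000196) and -0.72 between shTRPV4 samples and SC samples at 0.77 cP (edgeR adjusted p = 5.07e-07). The first of these did not pass without replicate 3 of SC samples at 8 cP (edgeR adjusted p = 0.0509). *TET1* (ENSG00000138336; chr10:68560337-68694487, plus strand), the gene with the lowest level of the panel, was at 2.07, 1.68 and 1.82 CPM, at 1.72, 2.23 and 1.84 CPM and at 1.31, 1.32 and 1.25 CPM in the same order. Its SC groups overlapped, and shTRPV4 samples lay below both. The log2 fold change of *TET1* was 0.05 between the SC groups (95% interval from -0.25 to 0.35) and -0.58 between shTRPV4 and SC samples at 8 cP (SE 0.146, edgeR adjusted p = 0.0113), and the latter did not pass without replicate 2 of SC samples at 8 cP (0.0708). *TET3* had a difference of -0.21 between shTRPV4 and SC samples at 8 cP (95% interval from -0.37 to -0.04, edgeR adjusted p = 0.0824).

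Genes of cell division were also higher at 8 cP in SC samples, as *DNMT1*, *SUZ12*, *SUV39H1* and *SUV39H2* were. Of all genes, 9.57% were higher at 8 cP in SC samples. In shTRPV4 samples 9.02% were higher than in SC samples at 8 cP, and 20.4% higher than at 0.77 cP. The cell division list was also chosen with earlier results of these data known, so it is no independent test. Of 24 listed, 16 were higher and none lower at 8 cP in SC samples (median log2 fold change 0.23). Against SC samples at 8 cP, 2 were higher and none lower in shTRPV4 samples (median -0.0005), whereas *SUZ12* was higher there by 0.17, and against SC samples at 0.77 cP 21 were higher and 1 lower (median 0.24). Their summed level lay between 4345 and 4831 CPM in SC samples at 0.77 cP, between 5171 and 5547 CPM in SC samples at 8 cP and between 5109 and 5516 CPM in shTRPV4 samples. *UHRF1*, which brings DNMT1 to newly replicated DNA, rose by 0.40 between the SC groups (edgeR adjusted p = 0.0032). In separate assays, the study reported no change of cell proliferation at elevated compared with baseline viscosity. By its account, the cells of those assays were grown at 0.77 cP and exposed to the higher viscosity acutely. The samples here were taken on day 6, so those assays do not give the proliferation of these cells. The part of cell division in the levels of these modifier genes was not tested.

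The start regions of *DNMT1* and *SUZ12* are shown because they are the genes that differed between the SC groups and whose windows hold the letters of an E2F site, the element through which many replication genes are switched on in the cell cycle. They lie at chr19:10194934-10195203 on the minus strand and at chr17:31936757-31937026 on the plus strand of GRCh38.p14, are written in the direction of transcription from 250 bases before the RefSeq start to 20 after it, and carry matches to the E2F letters and to the core letters given above in capitals.
DNMT1: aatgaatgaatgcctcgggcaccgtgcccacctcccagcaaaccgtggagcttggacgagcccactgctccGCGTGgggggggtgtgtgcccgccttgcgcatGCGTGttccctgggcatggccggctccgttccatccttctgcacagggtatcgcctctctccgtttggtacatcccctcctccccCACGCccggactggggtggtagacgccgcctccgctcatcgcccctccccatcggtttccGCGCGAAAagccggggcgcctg
SUZ12: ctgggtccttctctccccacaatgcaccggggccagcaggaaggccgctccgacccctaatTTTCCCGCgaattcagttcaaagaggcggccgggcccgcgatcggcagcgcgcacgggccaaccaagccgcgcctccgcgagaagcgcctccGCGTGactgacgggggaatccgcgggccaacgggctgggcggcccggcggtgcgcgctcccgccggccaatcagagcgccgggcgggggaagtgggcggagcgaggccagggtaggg
The E2F letters searched were TTTGGCGC, TTTCCCGC, TTTCGCGC and TTTGCCGC, on both strands. The match in *DNMT1* (GCGCGAAA, the reverse complement of TTTCGCGC) began 2 bases before the start, and that in *SUZ12* (TTTCCCGC) began 189 bases before it. Of the 45 panel genes with a window, 4 held such a match (*DNMT1*, *EZH1*, *EZH2* and *SUZ12*), against 3.33% of all 27305 windows and 10 of 20 cell division genes. *SUV39H2* held none of these but was the 1 panel gene with the cyclic AMP response element TGACGTCA, found in 1.98% of windows. These matches describe letters in the windows and say nothing about binding.

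**Figure D4:**
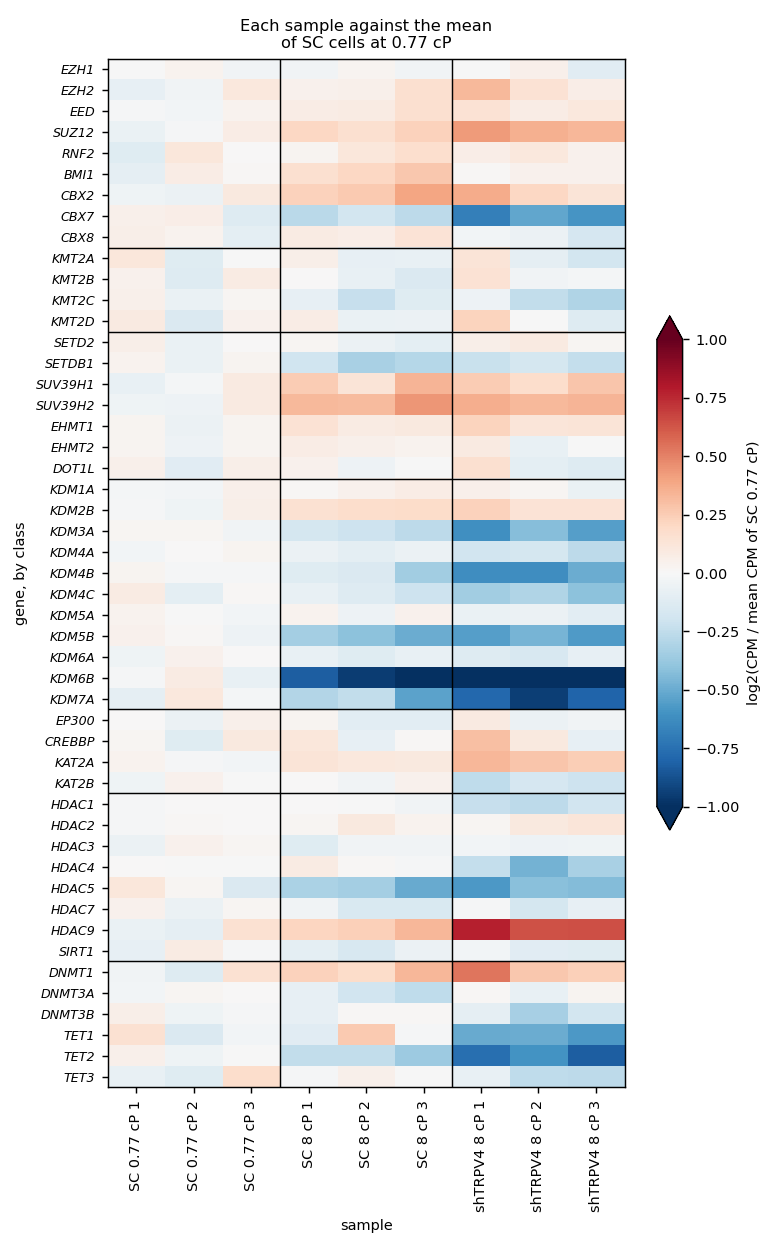
Each sample (x axis) against the mean of SC samples at 0.77 cP for each gene (y axis, grouped by class), as log2 of the ratio of CPM, with red above and blue below and colours saturated beyond 1 in either direction. *KDM6B* reached -1.12 in the lowest sample and *HDAC9* 0.78 in the highest, and all 6 samples at 8 cP are blue for *KDM6B*.

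The other genes of these pathways, outside the panel, were 123 in 7 lists, of which 122 were tested. In the first comparison 28 of them passed (22.95%), 19 higher and 9 lower, in the second 22 (18.03%), 8 higher and 14 lower, and in the third 65 (53.28%), 35 higher and 30 lower. The shares over all genes were 19.3%, 20.0% and 42.4%. Among genes in the panel's range of levels they were 25.8%, 25.9% and 54.1%, so the third share of the other lists lay near this background. Of 26 other polycomb subunits, 5 rose and 3 fell between the SC groups, and 6 were lower and none higher in shTRPV4 than in SC samples at 8 cP. *CBX6*, a further chromobox gene, was at 92.9, 106 and 85.4 CPM as group means, with log2 fold changes of 0.20 between the SC groups (edgeR adjusted p = 0.0069) and -0.32 (edgeR adjusted p = 0.00013) between shTRPV4 and SC samples at 8 cP. *PCGF3*, of a variant polycomb complex 1, stepped down, with -0.20 (edgeR adjusted p = 0.0092) and -0.27 (edgeR adjusted p = 0.00097). Of its exon bases, 23.2% are shared with genes on the other strand.

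Of 20 other genes of H3K4 and H3K36 methylation, 4 rose and 1 fell between the SC groups, and 1 was higher and 2 lower in shTRPV4 than in SC samples at 8 cP. The gene that fell was *KMT2E*, with -0.24 (edgeR adjusted p = 0.0026). Of 8 readers and partners of lysine 9 methylation, 2 rose and none fell between the SC groups, *CBX1*, which encodes a heterochromatin protein, by 0.20 (edgeR adjusted p = 0.013) and *TRIM28*, the partner of SETDB1, by 0.16 (edgeR adjusted p = 0.036). In the second comparison 0 of these 8 passed with edgeR, 2 had an unadjusted p below 0.05 and DESeq2 called 1. A list of 12 other genes of histone demethylation held demethylases and the corepressor genes *RCOR1*, *RCOR2* and *RCOR3*. Of these 12, 1 rose and none fell between the SC groups, namely *KDM1B*, the paralogue of *KDM1A*, by 0.23 (edgeR adjusted p = 0.015). In the second comparison 1 of these 12 was higher and 2 were lower.

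Of 29 other genes that write, read or erase acetylation, 2 rose and 5 fell between the SC groups, and 2 were higher and 3 lower in shTRPV4 than in SC samples at 8 cP. *BRD2*, a bromodomain reader of acetylated histones, fell by 0.29 (edgeR adjusted p = 0.00048), and *HDAC11* fell by 0.37 (edgeR adjusted p = 0.0096). Of 9 other DNA methylation genes tested, 2 rose between the SC groups, and 1 was lower in shTRPV4 than in SC samples at 8 cP. That gene was *TDG*, whose product excises the oxidized cytosines that TET enzymes make, at 39.8 CPM in SC samples and 27.0 CPM in shTRPV4 samples as group means (log2 fold change -0.56, edgeR adjusted p = 1.2e-06). Of 18 subunits of the SWI/SNF remodelling complex, which moves nucleosomes and opposes polycomb, 3 rose and none fell between the SC groups, 4 were higher and none lower in shTRPV4 than in SC samples at 8 cP, and 9 were higher and none lower in shTRPV4 samples than in SC samples at 0.77 cP. These were 16.67%, 22.22% and 50% of the 18. Of all genes 19.3%, 20.0% and 42.4% passed, and of genes in the panel's range of levels 25.8%, 25.9% and 54.1%. *BRD7* was among them in each comparison, with log2 fold changes of 0.19 (edgeR adjusted p = 0.013), 0.17 (edgeR adjusted p = 0.022) and 0.36 (edgeR adjusted p = 2.7e-05).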

How the data were processed

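The data were 9 RNA-seq samples of MDA-MB-231 cells, 3 per group, grouped by the sample titles and characteristics. As described by the authors, strand-specific poly(A) libraries were sequenced as read pairs, mapped to GRCh38.p13 with HISAT2 2.2.1 and totalled with HTSeq 0.13.5 for the genes of Ensembl release 104, and the authors deposited the raw counts of each sample without normalization. The strand setting is not given in the sources used here. Counts were scaled by TMM, filtered with filterByExpr and tested with edgeR's quasi-likelihood test (edgeR 4.0.16, R 4.3.3) in 1 model with a coefficient per group, and p-values were adjusted by Benjamini-Hochberg over 18264 genes, with a threshold of 0.05. The common biological coefficient of variation was 0.0633. Levels are CPM on TMM-scaled library sizes, and levels between genes were compared per kilobase of exon of GENCODE release 44. Intervals are 95% intervals of the log2 fold change. No molecular identifiers are described for the libraries, so copies of the same molecule cannot be told from separate molecules in the counts.

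The panel and all gene lists were chosen with earlier results of these data known. Values in every sample are given for the 8 members with the smallest adjusted p in each comparison and for members that passed with a log2 fold change of 0.5 or more in either direction, and other members and listed genes are named by their test results. Genes named from the other lists were chosen after their values were seen. Promoter windows come from RefSeq (GRCh38.p14) and were matched by symbol for 45 of 49 members. The procedure was tested on simulated counts. Alternatives were DESeq2 1.42.0 with its Wald test, DESeq2's size factors in edgeR, upper quartile scaling, no filter, at least 10 counts in every sample, the 6 samples of a comparison alone, the replicate number as a block, and leaving out each sample in turn.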

Additional observations from a re-analysis of the deposited data

How the results depend on the processing

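Under the 7 alternatives other than leaving out a sample, all 17 calls between the SC groups and all 13 between shTRPV4 and SC cells at 8 cP held, and 25 of the 27 between shTRPV4 cells and SC cells at 0.77 cP did. None of these calls changed sign under any alternative run. When each sample was also left out in turn, 6, 9 and 22 calls held throughout, and those of the first comparison were *BMI1*, *SETDB1*, *SUV39H2*, *KDM5B*, *KDM6B* and *HDAC5*.
Leaving out 1 sample at a time gave between 7 and 18 called panel genes in the first comparison (17 with all samples), with 7 reached without replicate 3 of the SC samples at 8 cP. The calls over all genes ran from 1409 to 4349 in the first comparison and from 2179 to 3836 in the second. Deviations from group means had correlations across genes between -0.0546 and 0.0904 for equal replicate numbers and between -0.106 and 0.115 for unequal ones. No pairing by replicate number was seen in these values, which cannot tell whether samples of equal number were handled together. With the replicate number as a block, 17, 13 and 25 panel genes and 3475, 3607 and 7731 of all genes were called, and *EZH2* (edgeR adjusted p = 0.0526) and *DNMT3B* (0.055) were lost from the third comparison. *EZH2* was also lost with upper quartile scaling (edgeR adjusted p = 0.0505), while *DNMT3B* was lost with DESeq2's test (0.0675) and its size factors (0.0552), without the filter (0.102) and in the 6 samples alone (0.08).

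Sign changes were met in small differences that had not passed. Between the SC groups *KAT2B* had -0.0033 with upper quartile scaling and from -0.0082 to 0.0365 with samples left out, and the ranges with samples left out were -0.0104 to 0.0096 for *HDAC1*, -0.0306 to 0.0216 for *DNMT3B* and -0.0557 to 0.1405 for *TET1*. Between shTRPV4 and SC samples at 8 cP, *KDM2B* had 5e-04 with DESeq2, 0.002 with its size factors in edgeR, 9e-04 without the filter and 1e-04 with at least 10 counts in every sample. In that comparison the ranges with samples left out were -0.034 to 0.0156 for *KDM2B*, -0.1298 to 0.0012 for *KMT2C*, -0.0622 to 0.0443 for *SUV39H1*, -0.0453 to 0.0211 for *SUV39H2* and -5e-04 to 0.1576 for *DNMT1*. For *BMI1* the range was -0.002 to 0.0778 between shTRPV4 samples and SC samples at 0.77 cP. The cause was not tested. The other scalings shifted the median of all genes by between -0.0155 and 0.0072 on the log2 scale.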
